A study of Homo sapiens with 8 samples.

Results

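The genes examined here were 9 components of MHC class I antigen presentation: the heavy chains HLA-B, HLA-C and HLA-E, their light chain B2M, the peptide transporter subunits TAP1 and TAP2, the chaperone TAPBP, the trimming peptidase ERAP1 and the transcriptional activator NLRC5. They were chosen by name, with earlier results of these data known. All 9 were found by symbol, once each, among the 62649 genes of the expression table. RNA had been measured by sequencing in 8 libraries, 1 for each of 4 treatments in each of 2 human lines of pancreatic ductal adenocarcinoma, AsPC-1, derived from malignant ascites, and PANC-1, derived from a primary tumour, both labelled WT. Spheroids were grown for 3 days in medium with methylcellulose, which keeps cells from attaching, and then received vehicle, 10 µM roseoflavin, 1 nM trametinib or both compounds for 24 h. Roseoflavin is an analogue of riboflavin made by a Streptomyces species, and trametinib blocks the MEK kinases of the MAPK cascade. The comparisons ask how the lines differ in these genes and how each compound, alone or with the other, moves them. Each line stands for 1 tumour, and the labels name no immune or stromal cells, so a difference between the lines compares 1 line with 1 line. No group has a second library, so replication comes from the other factors of the design.

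Class I molecules display peptides from the cell's own proteins on the surface, where cytotoxic T cells and natural killer cells read them. The proteasome cuts the peptides, the TAP transporter carries them into the endoplasmic reticulum, ERAP1 shortens them, and TAPBP (tapasin) holds an empty heavy chain with B2M beside the transporter until a peptide fits. Interferons raise most of these genes together, through STAT and IRF factors at the interferon-stimulated response element, NF-kB at a kappa B site, and NLRC5 acting with RFX, CREB or ATF, and NF-Y factors at the X and Y boxes. Low surface class I is a known feature of many pancreatic cancers.

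The promoter stretches below are shown because HLA-B and HLA-C kept nearly the same proportion in all 8 libraries and because the response elements named above lie in the upstream region. Each is the 250 bases before the annotated start, 5′ to 3′ on the gene's strand, from RefSeq on GRCh38.p14. HLA-B spans chr6:31357180-31357429 (minus strand), HLA-C chr6:31272093-31272342 (minus), B2M chr15:44711267-44711516 (plus), TAP1 chr6:32853705-32853954 (minus), TAP2 chr6:32838740-32838989 (minus) and TAPBP chr6:33314079-33314328 (minus). Capitals mark every match, on either strand, to one of the 7 motifs spelled out after the sequences.
HLA-B: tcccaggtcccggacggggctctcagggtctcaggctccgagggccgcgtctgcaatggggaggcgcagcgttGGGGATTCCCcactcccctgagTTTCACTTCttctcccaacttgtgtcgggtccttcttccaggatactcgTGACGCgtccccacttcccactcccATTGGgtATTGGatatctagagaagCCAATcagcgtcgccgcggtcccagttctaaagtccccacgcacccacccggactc
HLA-C: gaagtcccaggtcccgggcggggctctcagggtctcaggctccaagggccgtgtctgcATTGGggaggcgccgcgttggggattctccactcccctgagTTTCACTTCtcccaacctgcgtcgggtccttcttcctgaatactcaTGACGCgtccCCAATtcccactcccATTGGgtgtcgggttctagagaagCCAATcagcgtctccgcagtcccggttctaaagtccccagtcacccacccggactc
B2M: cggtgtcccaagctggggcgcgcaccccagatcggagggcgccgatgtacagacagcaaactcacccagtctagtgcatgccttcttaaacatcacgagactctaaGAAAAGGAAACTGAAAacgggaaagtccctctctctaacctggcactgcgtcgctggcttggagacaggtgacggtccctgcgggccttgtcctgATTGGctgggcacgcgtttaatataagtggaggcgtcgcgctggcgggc
TAP1: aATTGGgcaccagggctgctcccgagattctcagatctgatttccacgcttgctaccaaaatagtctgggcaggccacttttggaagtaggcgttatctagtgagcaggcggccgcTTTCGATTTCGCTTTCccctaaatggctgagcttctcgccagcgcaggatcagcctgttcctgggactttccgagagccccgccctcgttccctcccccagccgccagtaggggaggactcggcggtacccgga
TAP2: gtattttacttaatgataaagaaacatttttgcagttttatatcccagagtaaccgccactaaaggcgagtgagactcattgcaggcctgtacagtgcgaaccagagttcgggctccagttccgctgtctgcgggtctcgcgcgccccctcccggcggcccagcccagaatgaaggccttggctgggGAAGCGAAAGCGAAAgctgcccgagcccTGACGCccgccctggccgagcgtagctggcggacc
TAPBP: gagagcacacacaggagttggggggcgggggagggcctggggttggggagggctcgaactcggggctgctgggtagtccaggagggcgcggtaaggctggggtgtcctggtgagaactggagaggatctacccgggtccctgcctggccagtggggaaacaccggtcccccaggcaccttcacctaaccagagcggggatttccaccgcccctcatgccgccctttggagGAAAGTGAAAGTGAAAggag

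An entry was matched for 7 of the 9 genes, those shown and ERAP1. Positions are counted from the start base as 0, and the search covered 250 bases before the start and 50 from it. The core of the interferon-stimulated response element, GAAA, any 2 bases and GAAA, was found in 5 of the 7: B2M (from -144 and -138), TAP1 (-134 and -128), TAP2 (-58), TAPBP (-20 and -14) and, just past the start, ERAP1 (2). It was in 3.6% of the 35116 promoters of the table. In B2M, TAP1 and TAPBP a pair of overlapping matches lies in tandem. HLA-B and HLA-C held instead the shorter form GAANNGAAA (-155 and -151), which was added after the windows were seen, was also in TAP2 beside its core, and was in 7.7% of promoters. The NF-kB letters, GGG, any 2 bases and TTCCC, were in HLA-B (-177) and ERAP1 (-73), against 2.2% of promoters, and not in the HLA-C window. Other spellings of the kappa B site were not searched, so lower case does not mean that a window lacks one. The Y box letters ATTGG were in 5 of the 7 (HLA-B, HLA-C, B2M, TAP1 and ERAP1), but 34.6% of promoters hold them. The letters TGACGC, added after the windows were seen as a variant of the X2 box, were in HLA-B (-106), HLA-C (-105) and TAP2 (-35), against 9.1% of promoters. TGACGT (8.0% of promoters) and TTCNNNGAA, the core of the STAT-binding GAS element (7.7%), were in 0 of the 7 windows. The upstream stretches of HLA-B and HLA-C were identical at 226 of 254 aligned positions (89.0%). A match describes letters in this window and shows no binding.

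The values are TPM, transcript abundances scaled for gene length that sum to 1000000 in every library, so sequencing depth is unknown and no counting interval can be given. Transcripts of the mitochondrial genome took 41.2% to 44.1% of TPM in AsPC-1 and 22.8% to 25.6% in PANC-1, which scales every other gene in a line down or up together. The median gene was 0.55 higher in PANC-1 on the log2(TPM + 1) scale, and line differences are given both as measured and relative to that shift. Epithelial markers summed to 7434 to 8559 TPM in AsPC-1 and 2864 to 3182 TPM in PANC-1, with all 6 at 1 TPM or more in both lines. Of 7 leukocyte markers, CD3E was 0 in every library and PTPRC reached at most 0.019 TPM. CD68 (108 to 139 TPM over both lines) and, in AsPC-1, LYZ (1856 to 1970 TPM) were the leukocyte markers at high levels. Of 7 fibroblast and endothelial markers, 6 stayed below 1 TPM in each line, the exceptions being LUM in AsPC-1 (103 to 146 TPM) and COL1A1 in PANC-1 (98.9 to 107 TPM). The part of these marker differences in the line comparisons was not tested. In bulk RNA, fewer cells of a kind and less RNA per cell cannot be told apart.

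HLA-B, a classical heavy chain, stood at 24.6 TPM with vehicle, 23.3 with roseoflavin, 28.3 with trametinib and 27.6 with both in AsPC-1. In PANC-1 the same treatments gave 101.6, 112.7, 103.0 and 113.2 TPM. Every PANC-1 library lay far above every AsPC-1 library, and the means differed 4.15-fold (26.0 ± 2.4 against 107.6 ± 6.2 TPM, SD over the 4 treatments of a line, n = 4). HLA-C, the other classical heavy chain here, read 65.4, 63.0, 72.1 and 75.4 TPM in AsPC-1 and 266.1, 285.9, 276.1 and 291.6 TPM in PANC-1, in the same order of treatments. Its lines were likewise apart, by 4.06-fold. HLA-E, a nonclassical heavy chain that presents leader peptides to natural killer cell receptors, read 178.9, 183.6, 214.4 and 188.7 TPM in AsPC-1 and 269.9, 300.2, 261.0 and 303.2 TPM in PANC-1. The lines did not overlap for HLA-E either, but the means differed only 1.48-fold. Its lowest library was AsPC-1 with vehicle, and its 2 highest were the PANC-1 libraries with roseoflavin. B2M, the light chain shared by all class I molecules, read 527.0, 487.0, 573.1 and 556.3 TPM in AsPC-1 and 530.9, 538.7, 528.8 and 521.5 TPM in PANC-1. It was the most abundant of the 9 in every library and the only member whose lines overlapped, with line means at a ratio of 0.989.

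TAP1, a subunit of the peptide transporter, read 15.8, 15.5, 17.5 and 16.6 TPM in AsPC-1 and 38.1, 38.6, 40.0 and 41.7 TPM in PANC-1. TAP2, its partner in the heterodimer, read 5.51, 5.59, 5.97 and 6.39 TPM in AsPC-1 and 24.3, 22.2, 25.3 and 25.4 TPM in PANC-1. PANC-1 was thus higher for both subunits in every library, by 2.42-fold in the mean for TAP1 and 4.14-fold for TAP2. TAPBP, which bridges the transporter and the heavy chain, read 74.0, 68.4, 81.2 and 79.0 TPM in AsPC-1 and 195.8, 183.8, 194.9 and 197.9 TPM in PANC-1, again with no overlap and a ratio of 2.55. In both lines the roseoflavin library was the lowest for TAPBP. ERAP1, which trims the amino end of peptides in the endoplasmic reticulum, read 19.7, 18.8, 23.4 and 23.8 TPM in AsPC-1 and 26.6, 28.1, 27.5 and 29.7 TPM in PANC-1. Its lines did not overlap but lay close, at a ratio of 1.31.

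NLRC5, the class I transactivator, was the least abundant of the 9 and the only one higher in AsPC-1. It read 2.42, 2.08, 2.33 and 2.64 TPM in AsPC-1 and 0.872, 1.06, 1.45 and 0.980 TPM in PANC-1. The lines did not overlap, and the AsPC-1 mean was 2.17 times the PANC-1 mean. With a highest over lowest ratio of 1.66 in PANC-1, NLRC5 was also the member that varied most within a line. The other 8 members varied within a line by no more than 1.26 times.

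**Figure D1:**
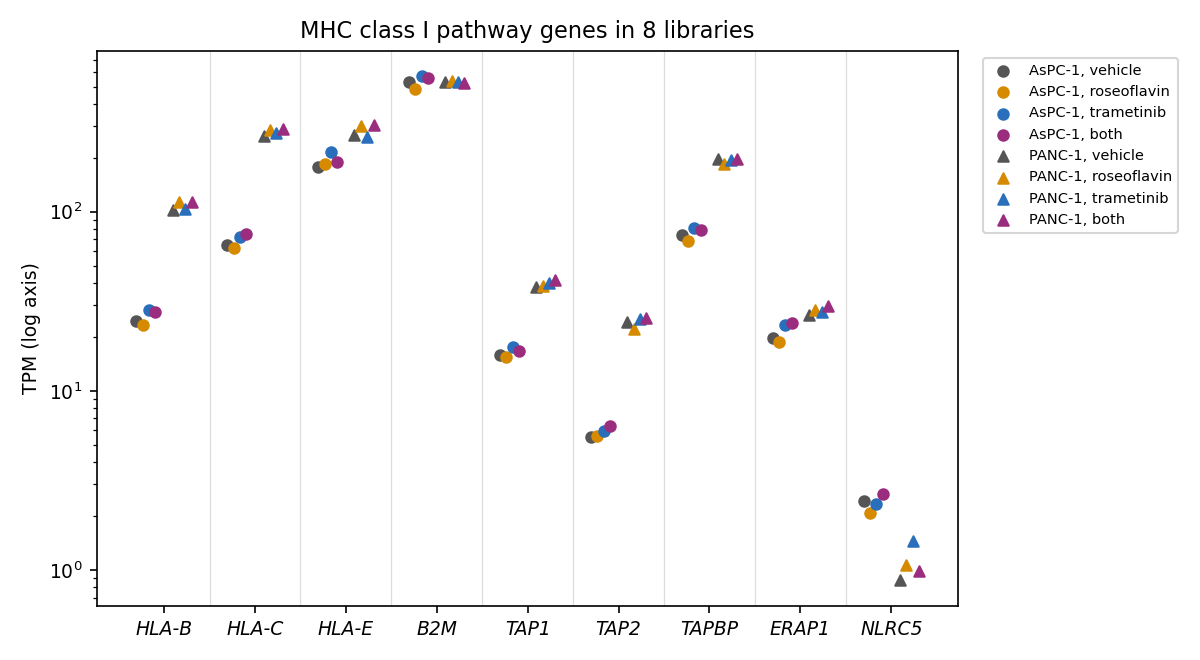
TPM (log axis) of each of the 9 genes in each of the 8 libraries; circles are AsPC-1, triangles PANC-1, and colours the 4 treatments, 1 point for each library. The lines lie apart for every gene but B2M, with PANC-1 above for 7 genes and below for NLRC5, and treatments within a line lie close together. How many of all genes lie apart in this way was not counted. Of all genes tested, 83.8% were called for the line difference.

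Ordered by line mean, the levels in AsPC-1 ran from B2M (536 TPM) through HLA-E (191), TAPBP (75.6), HLA-C (69.0), HLA-B (26.0), ERAP1 (21.4), TAP1 (16.4) and TAP2 (5.87) to NLRC5 (2.37). Of neighbours in that order, TAPBP and HLA-C overlapped, as did HLA-B and ERAP1, and the others did not. In PANC-1 the order was B2M (530.0 TPM), HLA-E (284), HLA-C (280.0), TAPBP (193), HLA-B (108), TAP1 (39.6), ERAP1 (28.0), TAP2 (24.3) and NLRC5 (1.09). There only HLA-E and HLA-C overlapped. Among all genes of the vehicle libraries, B2M ranked 152 from the top in AsPC-1 and 175 in PANC-1, while HLA-C ranked 1602 and 410, and HLA-B 4312 and 1337. NLRC5 ranked 13139 and 17580.

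All 9 genes passed the filter of at least 1 TPM in 2 or more libraries, with 19122 genes in all. In the linear model over the 8 libraries, 7 of the 9 were higher in PANC-1 and 1 (NLRC5) was lower at an adjusted p under 0.05 (limma, Benjamini-Hochberg over all genes tested). That count has to be read against a background of 83.8% of all genes called, 62.3% higher and 21.5% lower. With the mitochondrial genome left out of the total, 5 members were called higher and 2 lower (48% and 30.8% of all genes), and after quantile normalization 6 and 2 (41.6% and 37.5%). The median difference over the members was 1.23 on the log2(TPM + 1) scale, against 0.55 over all genes. HLA-B differed by 2.01 (SE 0.0635, adjusted p = 2.71e-07) and HLA-C by 2.01 (SE 0.0482, adjusted p = 8.17e-08). TAP2 followed with 1.88 (SE 0.0470, adjusted p = 9.69e-08), TAPBP with 1.34 (SE 0.0421, adjusted p = 2.63e-07) and TAP1 with 1.23 (SE 0.0372, adjusted p = 2.28e-07). Relative to the median gene, these 5 stayed 0.67 (TAP1) to 1.46 (HLA-B) higher in PANC-1. They were also called higher after the mitochondrial genome was left out of the total (0.86 for TAP1 to 1.64 for HLA-B) and after quantile normalization (0.73 for TAP1 to 1.64 for HLA-C). These p-values measure the spread between these libraries only, since the labels name no separate cultures.

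The remaining 4 members depended on the scale or went the other way. HLA-E was 0.57 higher in PANC-1 (SE 0.0744, adjusted p = 0.000351), which is the shift of the median gene. Without the mitochondrial genome in the total it was 0.18 higher (adjusted p = 0.0626), and after quantile normalization 0.26 higher (adjusted p = 0.00995). ERAP1 was 0.38 higher (SE 0.0600, adjusted p = 0.000958), below the median gene by 0.18, with 0.0010 (adjusted p = 0.988) and -0.13 (adjusted p = 0.051) under those other scalings. B2M differed by -0.013 (SE 0.0501, adjusted p = 0.815) as measured, and was called lower in PANC-1 under both other scalings (-0.40, adjusted p = 0.000179, and -0.28, adjusted p = 0.000773). NLRC5 was lower in PANC-1 under every scaling tried, by -0.69 (SE 0.0978, adjusted p = 0.000511) as measured, -1.07 without the mitochondrial genome and -1.31 after quantile normalization. Of the members NLRC5 is known to activate, HLA-B, HLA-C and TAP1 lay in the opposite order between the lines. HLA-E stood at the shift of the median gene as measured and close to it without the mitochondrial genome (-0.04 relative to it). After quantile normalization HLA-E stood above it, at 0.26 against 0.04. B2M overlapped between the lines as measured and was lower in PANC-1, as NLRC5 was, under the other scalings. Outside the members, the immunoproteasome subunit PSMB9 was called higher in PANC-1 as measured (0.16) and lower under the other scalings (-0.21 and -0.37). The class I molecule HLA-F was higher as measured (0.44) and not called under the other scalings (0.11 and -0.12). The part of NLRC5 in these line differences was not tested.

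**Figure D2:**
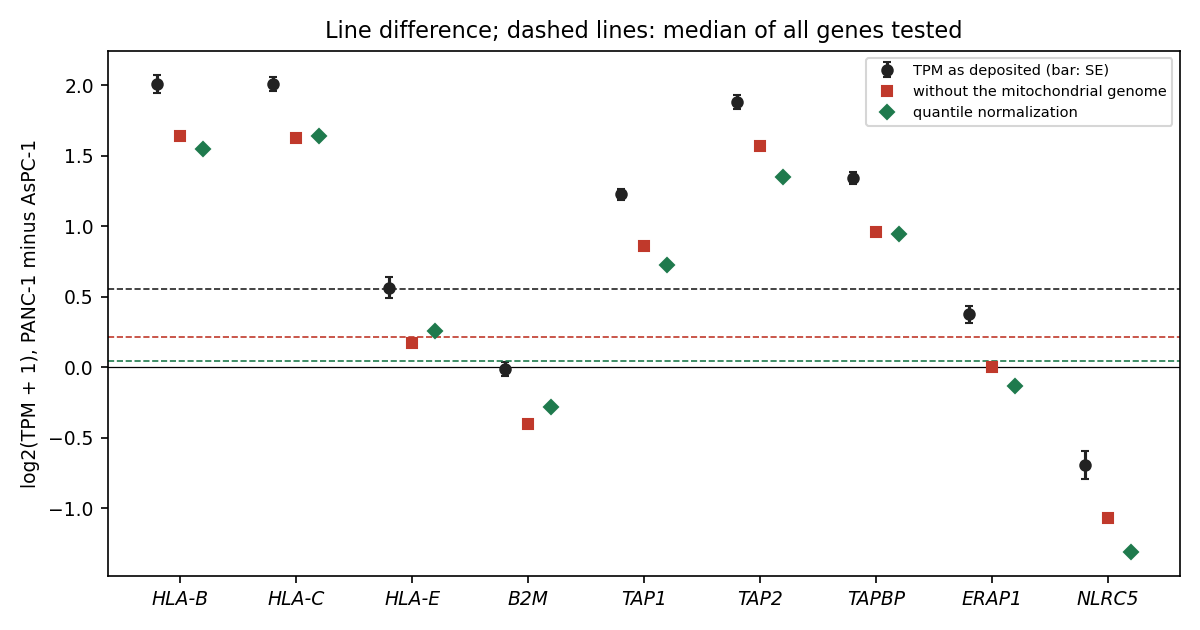
PANC-1 minus AsPC-1 on the log2(TPM + 1) scale for each gene under 3 scalings, with SE bars on the values as deposited and dashed lines at the median of all genes tested in the matching colour. HLA-B, HLA-C, TAP1, TAP2 and TAPBP lie above the median under all 3 scalings, and B2M, ERAP1 and NLRC5 below it. HLA-E lies above it by 0.01 as deposited and at -0.04 relative to it without the mitochondrial genome. After quantile normalization HLA-E lies above it, at 0.26 against 0.04.

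A ratio of genes within a library does not depend on the total to which the library was scaled, though quantile normalization can change it. Of 10 such ratios, chosen after the values were seen, 9 did not overlap between the lines. For each of the 9 an exact two-sided permutation test over 4 and 4 libraries gave p = 0.0286, the smallest it can give (adjusted p = 0.0317 over the 10). The test shuffled libraries freely and did not keep their matching by treatment, and the adjustment does not cover the choice of ratios. HLA-C over HLA-B was the ratio that overlapped, at 2.66 ± 0.083 in AsPC-1 and 2.60 ± 0.061 in PANC-1 (SD, n = 4, exact permutation p = 0.3143), though each gene differed about 4-fold between the lines. B2M over HLA-B fell from 20.7 ± 0.59 in AsPC-1 to 4.94 ± 0.29 in PANC-1, so that AsPC-1 had 4.19 times more light chain RNA for each HLA-B transcript. HLA-E over HLA-B stood at 7.39 ± 0.44 against 2.63 ± 0.067, so the nonclassical chain stood higher beside the classical one in AsPC-1. TAP1 over TAP2 reached 2.79 ± 0.14 in AsPC-1 against 1.63 ± 0.078 in PANC-1. TAPBP over TAP1 differed little in size, at 4.62 ± 0.14 and 4.88 ± 0.18. How often ratios of other genes lie apart between the lines was not counted.

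**Figure D3:**
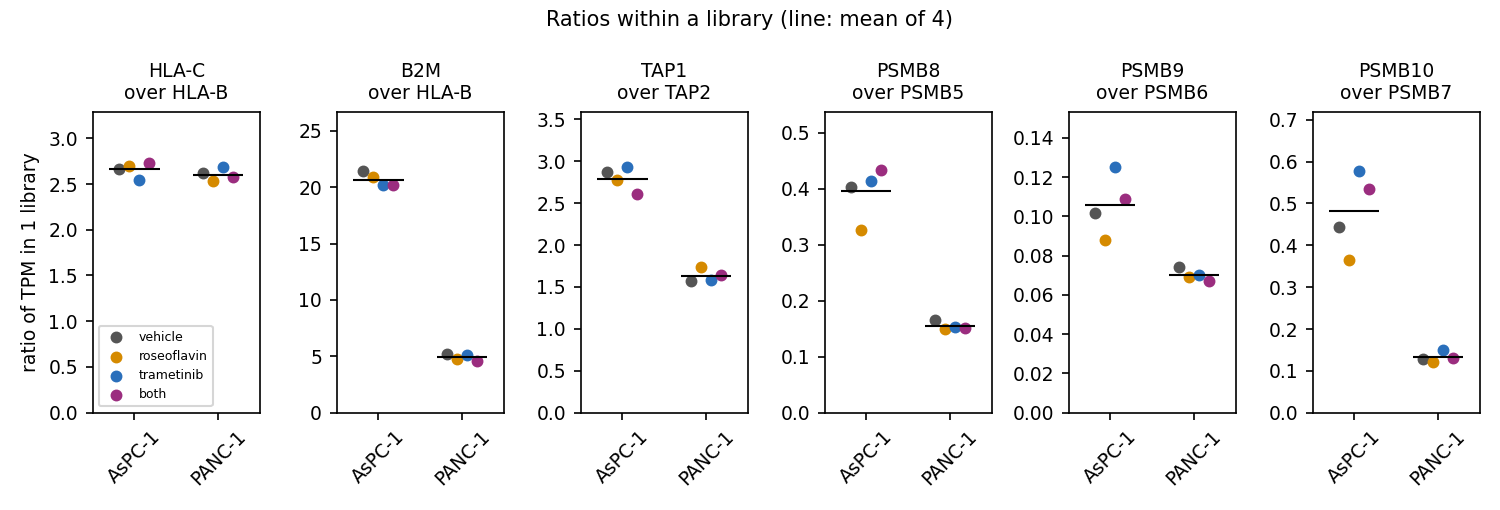
Ratio of the TPM of 2 genes within each library (linear axes from 0), with 1 point for each library coloured by treatment and a line at the mean of the 4 libraries of a cell line. HLA-C over HLA-B overlaps between the lines (means 2.66 and 2.60), while the other 5 ratios are higher in all 4 AsPC-1 libraries than in any PANC-1 library.

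Some of these genes share sequence with others. HLA-B and HLA-C are close paralogues, and reads could be split between them or lost from both. How reads with several matches were treated is not given in the sources used here. Whether differences between the lines in their own HLA sequences affected these levels was not tested. In the GENCODE 29 annotation on GRCh38, HLA-B (chr6:31269491-31357188, minus strand) is drawn across HLA-C (chr6:31268749-31272130) and shares 35 exonic bases with it. HLA-E lies at chr6:30489467-30494205, TAP1 at chr6:32845209-32853978, TAP2 at chr6:32821833-32838780 and TAPBP at chr6:33299694-33314387, all within the MHC on chromosome 6. B2M is at chr15:44711487-44718877, ERAP1 at chr5:96760810-96808100 and NLRC5 at chr16:56989485-57083531, and all 9 are protein-coding. TAP2 shares 2064 of its 6390 exonic bases (32.3%) with the protein-coding gene ENSG00000250264 on the same strand. That gene read 13.6 to 16.9 TPM in AsPC-1 and 63.5 to 71.5 TPM in PANC-1, so the TAP2 level is uncertain. With its TPM added to that of TAP2, the TAP1 ratio became 0.775 ± 0.049 in AsPC-1 and 0.425 ± 0.019 in PANC-1, still higher in every AsPC-1 library. TAP1 shares 456 bases with PSMB8-AS1 and ERAP1 shares 299 with CAST, both on the opposite strand. The library kit keeps the strand, but whether counting used it is not given in the sources used here.

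Genes that make and load the peptides were compared next, from lists drawn up for the pathway. The immunoproteasome exchanges the 3 catalytic subunits of the standard proteasome for interferon-inducible ones that favour class I ligands. Of its subunits and the PA28 activator, 3 of 6 were lower in PANC-1, 1 was higher and 2 were not called, with a median difference of -0.29 against 0.55 over all genes, of which 62.3% were called higher and 21.5% lower. Under both other scalings all 6 were called lower, where 30.8% and 37.5% of all genes were. PSMB10 was lower by -1.56 (adjusted p = 5.97e-07), PSMB8 by -0.66 (adjusted p = 8.97e-05) and PSME1 by -0.48 (adjusted p = 0.000545). PSMB9 was higher by 0.16 (adjusted p = 0.0417) as measured but lower under the other scalings (-0.21 and -0.37), and PSME2 (0.064 as measured) and PSME3 (-0.11) gained lower calls there. The standard subunits PSMB5 (0.66), PSMB6 (0.76) and PSMB7 (0.23) were all called higher as measured, PSMB7 turning to -0.16 and -0.17 under the other scalings.

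Within a library, immunoproteasome over standard subunit was higher in AsPC-1 for all 3 pairs. PSMB8 over PSMB5 reached 0.395 ± 0.047 in AsPC-1 against 0.155 ± 0.008 in PANC-1, PSMB9 over PSMB6 0.106 ± 0.015 and 0.070 ± 0.003, and PSMB10 over PSMB7 0.481 ± 0.094 and 0.133 ± 0.012. AsPC-1 with roseoflavin was the lowest AsPC-1 library in each pair. TAP1 and PSMB9 are neighbours transcribed apart from start sites 488 bases from each other. TAP1 over PSMB9 stood at 1.60 ± 0.099 in AsPC-1 against 3.44 ± 0.18 in PANC-1, so PANC-1 had 2.15 times more TAP1 for each PSMB9 transcript.

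Of 8 other genes of the loading complex and of quality control in the endoplasmic reticulum, 6 were higher in PANC-1 and 2 lower under each of the 3 scalings. As measured this is near the 62.3% of all genes called higher and the 21.5% called lower, and the median difference was 0.87 against 0.55. Of all genes, 48% were called higher and 30.8% lower without the mitochondrial genome, and 41.6% and 37.5% after quantile normalization. ERAP2, the trimming peptidase that works beside ERAP1, differed most: it read 2.03 to 2.72 TPM in AsPC-1 and 14.1 to 15.7 TPM in PANC-1 (2.22, adjusted p = 1.73e-07). The chaperones HSPA5 (1.19) and PDIA3 (0.98) and the folding sensor UGGT1 (0.91) were higher too. TAPBPL, a tapasin relative that edits peptides outside the loading complex, was lower (-0.33, adjusted p = 0.000453).

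Among transcription factors of the pathway, 12 of 15 tested were higher in PANC-1 and 3 were not called, with a median of 0.63 that is close to the shift of all genes (0.55, with 62.3% called higher). NFYA (1.64) and NFYC (1.31), subunits of NF-Y, and RELA (1.08), a subunit of NF-kB, were among the higher. After quantile normalization 6 of the 12 were still called higher, NFYA, NFYC and RELA among them. There 4 were called lower: IRF1 (-0.71), CREB1 (-0.63), NFYB (-0.43) and IRF9 (-0.19). Of all genes, 41.6% were called higher and 37.5% lower under that scaling. IRF1, a known activator of TAP1 and PSMB9, read 7.99 to 10.8 TPM in AsPC-1 and 7.57 to 8.70 TPM in PANC-1 and was not called as measured (-0.16, adjusted p = 0.138) but was called lower in PANC-1 under both other scalings (-0.53, adjusted p = 0.00146, and -0.71, adjusted p = 0.000234). CIITA, the class II transactivator and relative of NLRC5, reached at most 0.066 TPM.

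Of 9 interferon receptors, kinases and feedback inhibitors, 4 were higher in PANC-1, 2 lower and 3 not called, with a median of 0.00060 against 0.55 over all genes (62.3% called higher and 21.5% lower). After quantile normalization 3 were higher and 5 lower, where 41.6% of all genes were called higher and 37.5% lower. IFNGR2 (-0.49), IFNAR1 (-0.69) and JAK2 (-0.54) gained lower calls there, and TYK2 was no longer called (limma adjusted p = 0.379). SOCS3 (3.22, limma adjusted p = 1.9e-08) and SOCS1 (1.96, adjusted p = 5.81e-07), inhibitors of JAK signalling, and JAK1 (1.01) were higher. SOCS1 read 0 to 0.24 TPM in AsPC-1 and 2.74 to 3.975 TPM in PANC-1, and passed the filter through PANC-1 alone. IFNGR1, the ligand-binding chain of the interferon gamma receptor, was lower (-1.37, adjusted p = 4.59e-07). Of 9 genes tied to silencing or turnover of class I, 6 were lower in PANC-1 and 3 higher, with a median of -0.51 against 0.55 over all genes (21.5% called lower and 62.3% higher). SUZ12, a core subunit of the Polycomb complex PRC2, was higher (1.54), while the ubiquitin ligase MARCHF9 (-1.33), the autophagy receptor NBR1 (-0.92) and the ligase WWP2 (-0.58) were lower. The higher calls of EZH2 (0.22) and EED (0.41), the other PRC2 subunits of the list, turned to lower calls after quantile normalization (-0.32 and -0.13).

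With trametinib in AsPC-1, all 9 genes had positive changes that did not pass the test. For 8 of the 9 genes both libraries with trametinib were higher than both without, NLRC5 being the exception, and 24% of all genes did so; none of the 9 was lower in both, against 13.3% of genes. The changes ran from 0.10 (NLRC5) to 0.28 (ERAP1) on the log2(TPM + 1) scale, all 9 positive against 56% of all genes, with a median of 0.16 against 0.016. Without the AsPC-1 library with roseoflavin, or without that with both compounds, 8 of the 9 were positive. No gene passed at an adjusted p under 0.05 (limma, 0% of 19122 genes), and 2691 genes (14.1%), 5 of the 9 members among them, had an unadjusted p under 0.05. ERAP1 moved most, from 19.7 and 18.8 TPM without trametinib to 23.4 and 23.8 with it (0.28, SE 0.0452, adjusted p = 0.271). When the test covered only the 7907 RefSeq mRNAs averaging 10 TPM or more, where 4.2% of genes were called, the adjusted p of ERAP1 was 0.0374 and no other member was called. HLA-B changed by 0.21 (SE 0.0369, adjusted p = 0.272), HLA-C by 0.20, TAPBP by 0.17, B2M by 0.16, HLA-E by 0.15, TAP2 by 0.13 and TAP1 by 0.12.

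Neighbouring lists ranged from below to above the members' median in that comparison. Loading and quality control genes had a median of 0.16 (8 of 8 positive), the immunoproteasome list 0.21 (6 of 6), interferon receptors and kinases 0.17 (7 of 9) and transcription factors 0.056 (12 of 15). Silencing and turnover genes had 0.075 (6 of 9) and other class I and class I-like molecules 0.043 (4 of 7), while the 3 standard proteasome subunits had -0.055 (0 of 3). The 6 epithelial markers also had a median of 0.16, all positive, and their part in the result was not tested. The mitochondrial share, 41.2% with vehicle, 42.2% with trametinib, 41.3% with both and 44.1% with roseoflavin, was highest in an AsPC-1 library without trametinib. With the mitochondrial genome left out of the total, all 9 members were still positive, with a median of 0.14. No member of these lists passed the test in any compound comparison.

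In PANC-1 the changes with trametinib lay closer to 0. TAP1 and TAP2 were higher in both libraries with trametinib than in both without (16.1% of all genes), B2M was lower in both (11.6% of all genes), and the other 6 overlapped. Changes ran from -0.026 (B2M) to 0.16 (NLRC5, SE 0.156, adjusted p = 1), 7 of 9 positive, with a median of 0.049 against 0.0093 over all genes. The NLRC5 value rests on 1.45 TPM with trametinib against 0.872 TPM with vehicle, and was -0.059 with either of these libraries left out. Of all genes 0% passed (limma), and 919 had an unadjusted p under 0.05 with 0 of the members among them. The difference between the lines in the trametinib response was negative for 8 of the 9 and largest for ERAP1 (-0.22, SE 0.0640, adjusted p = 0.504) and HLA-B (-0.20, SE 0.0521, adjusted p = 0.496). No gene passed in that comparison either (0%, limma), with 1854 at an unadjusted p under 0.05, so a difference between the lines was not shown at this size. Over both lines together the largest change was again that of ERAP1 (0.17, SE 0.0600, adjusted p = 0.861), all 9 were positive, from 0.065 (B2M), with a median of 0.11 against 0.018, and 0% of genes passed (938 unadjusted).

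With roseoflavin in PANC-1, the 3 heavy chains and ERAP1 had the largest changes of the 9, and none passed the test. HLA-B, HLA-C, HLA-E and ERAP1 were higher in both libraries with roseoflavin than in both without, and 22.9% of all genes did so. None of the 9 was lower in both, against 22.7% of genes. The largest change was that of HLA-E (0.18, SE 0.0666, adjusted p = 0.461), followed by HLA-B (0.14, SE 0.0369, adjusted p = 0.406), ERAP1 (0.094) and HLA-C (0.091). TAP1 (0.037), B2M (0.00060), TAPBP (-0.034), TAP2 (-0.059) and NLRC5 (-0.083) lay within their SE of 0, and the median over the members was 0.037 against 0. No gene passed (limma, 0%), and 2074 had an unadjusted p under 0.05, HLA-B among them. Other class I and class I-like molecules had a median of 0.14 there, 7 of 7 positive and 2 with an unadjusted p under 0.05. The 3 leukocyte markers past the filter were also positive, all with an unadjusted p under 0.05 and a median of 0.30: CD68 (0.16), CD14 (0.30) and LYZ. LYZ read at most 0.344 TPM in PANC-1 and passed the filter through AsPC-1 alone. CD14 was also low in PANC-1, at 0.473 TPM with vehicle, 0.817 with roseoflavin, 1.13 with trametinib and 1.62 with both. Its libraries with and without roseoflavin thus overlapped. Over all 7 leukocyte markers the summed level in PANC-1 was 121 to 140 TPM, nearly all of it CD68, and their part in the result was not tested.

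In AsPC-1 no member was higher (10.6% of all genes) or lower (21.6%) in both roseoflavin libraries than in both without. Changes ran from -0.078 (B2M, SE 0.0390, adjusted p = 0.53) to 0.050 (TAP2), 2 of 9 positive, with a median of -0.049 against -0.028 over all genes, and 0% of genes passed (2163 unadjusted, limma). The roseoflavin library without trametinib was the lowest AsPC-1 library for 7 of the 9 genes, all but HLA-E and TAP2. The line difference in the roseoflavin response was largest for HLA-E (0.26, SE 0.0942, adjusted p = 0.431) and reached 0.20 for HLA-B (SE 0.0521, adjusted p = 0.37), with 0% of genes called (2227 unadjusted). Over both lines the largest change was 0.056 for HLA-E (SE 0.0744, adjusted p = 0.892), 4 of 9 were positive with a median of -0.0048 against -0.017, and 0% of genes passed (1358 unadjusted).

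**Figure D4:**
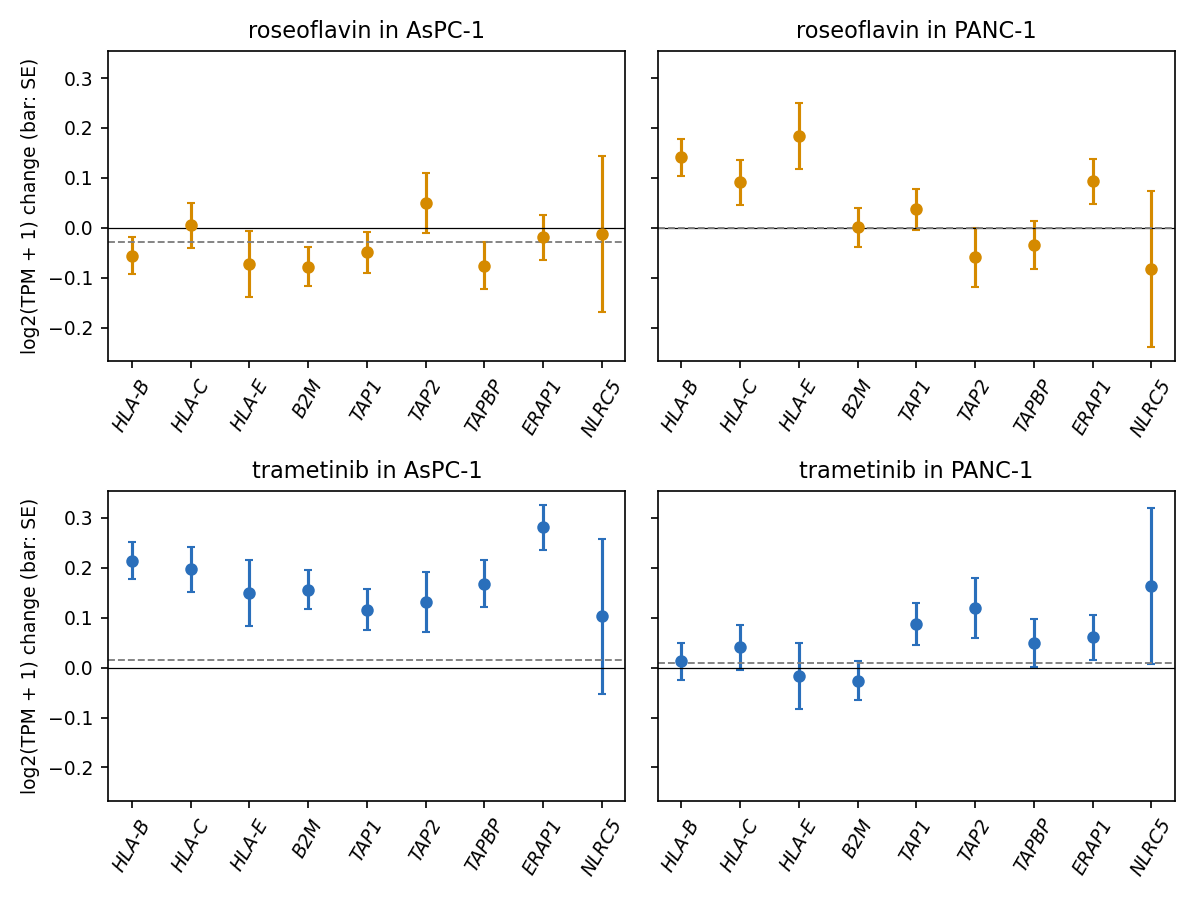
Change in log2(TPM + 1) of each gene with roseoflavin (top) or trametinib (bottom) in AsPC-1 (left) and PANC-1 (right), with SE bars from the model and a dashed line at the median of all genes tested. All 9 points are above 0 for trametinib in AsPC-1, from 0.10 to 0.28, and no change passed the test in any panel.

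With both compounds, 1 library against 1 in each line and so without a test, all 9 genes were above vehicle in AsPC-1 (46.8% of all genes were) and 8 of 9 in PANC-1 (51.1%). In AsPC-1 the ratio to vehicle ran from 1.05 (TAP1 and HLA-E) to 1.21 (ERAP1), and HLA-C (1.15) and TAP2 (1.16) were next to the highest. In PANC-1 it ran from 0.982 (B2M) to 1.12 (HLA-E, NLRC5 and ERAP1), with HLA-B at 1.11 and TAPBP at 1.01. The term for an interaction of the compounds was largest for TAP2 (0.10, SE 0.0964, adjusted p = 1), and 0% of genes passed (536 at an unadjusted p under 0.05, limma). These comparisons share their vehicle libraries with those of the single compounds.

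The pattern over treatments within a line, taken as the mean of the 9 genes after centring each line, ran from -0.11 in AsPC-1 with roseoflavin to 0.089 in AsPC-1 with trametinib, and in PANC-1 from -0.052 with vehicle to 0.044 with both. Of 8622 other named genes averaging 10 TPM or more, the 5 most alike over the 8 libraries were UBE2L6 (r = 0.989), SRP54 (0.989), RHPN2 (0.983), DDOST (0.981) and RPA1 (0.980). UBE2L6, the conjugating enzyme for ISG15, read 1.44, 1.07, 2.22 and 2.18 TPM in AsPC-1 and 32.4, 33.9, 35.6 and 39.9 TPM in PANC-1. These coefficients describe 8 points that share their libraries and their scaling with the members, and among so many genes some must lie close.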

How the data were processed

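RNA was measured in 8 libraries, 1 for each line and treatment, made with a stranded kit that selects polyadenylated RNA, per the labels' protocols. The authors deposited 1 table of TPM per gene, named for line and treatment per the file headers. The submitters' processing notes name STAR 2.7.3a, HTSeq 2.0.2 and the build hg38; their settings, the annotation and the step that made TPM are not given in the sources used here. Rows without a gene were dropped (985926), and 0 columns belonged to other samples. TPM keeps no depth, so precision comes from the spread between libraries.

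Samples were grouped by the line and treatment in their labels. Values were tested as log2(TPM + 1), which understates changes of low genes, with limma 3.58.1 in R 4.3.3 (eBayes with trend) after a filter of at least 1 TPM in 2 or more libraries, and p-values were adjusted by Benjamini-Hochberg over 19122 genes. The line difference and the compounds over both lines came from a model of line, roseoflavin and trametinib, the changes within lines from a model with line terms for both compounds, and the interaction from the first model with that term. The threshold was an adjusted p of 0.05. The script was tested on simulated data. Ratios used exact permutation tests that did not keep the matching by treatment (SciPy 1.17.1). The members and lists were chosen with earlier results of these data known. All 9 members were named, with the member of largest change in each compound comparison, up to 4 genes of a list by size of line difference (1 such gene is not reported here), and the 5 genes most alike in pattern; other genes and values were picked after seeing the data. Alternatives were a pseudocount of 0.1, no filter, quantile normalization, totals without the mitochondrial genome, RefSeq mRNAs averaging 10 TPM or more, no block for the line, and leaving out each library. Positions are from GENCODE 29 on GRCh38, and promoters from RefSeq on GRCh38.p14.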

Additional observations from a re-analysis of the deposited data

How the results depend on the processing

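Counts of genes called moved most with the choice of genes. Of the 7907 RefSeq mRNAs averaging 10 TPM or more, 91.5% were called for the line difference, against 83.8% of the 19122 genes. For trametinib in AsPC-1, the compound comparison with the most calls among those mRNAs, the share was 4.2%. Among RefSeq mRNAs averaging 10 TPM or more, 7236 were called for the line difference, 1 for trametinib over both lines, 163 and 117 for roseoflavin in AsPC-1 and PANC-1, 332 for trametinib in AsPC-1, and 158 and 2 for the line difference in the response to roseoflavin and to trametinib, against 16027 and then 0 for each of the others among 19122 genes; the cause beyond fewer genes tested was not tested. With the other compound given no line term, a model chosen after seeing the data, 5 genes were called for the line difference in the roseoflavin response. The line difference of B2M changed sign when an AsPC-1 or PANC-1 library with trametinib was left out (0.0106, 0.0085, 0.0143 and 0.0048 against -0.0133; range -0.0548 to 0.0143 over all libraries left out), all far from the threshold. ERAP1 turned to -0.1348 after quantile normalization. Over both lines, HLA-E with roseoflavin became -0.0052 without PANC-1 trametinib (range to 0.136), and NLRC5 with trametinib in PANC-1 became -0.0585 without PANC-1 vehicle or PANC-1 trametinib (range to 0.387). No pairing by replicate number was possible, because each group has 1 library and the labels give no replicate numbers. Libraries were matched by line and by compound within the models, but not in the permutation tests of the ratios. Unknown depth limits NLRC5 most, near 1 TPM in PANC-1.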

Other observations

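Among class I-like molecules and class II genes, some lay further apart between the lines than any of the 9 members. MICB, a stress ligand of the natural killer cell receptor NKG2D, read 0.23 to 0.494 TPM in AsPC-1 and 83.6 to 89.5 TPM in PANC-1, a difference of 6.01 on the log2(TPM + 1) scale (limma, adjusted p = 3.02e-09). MICA, its close relative, overlapped between the lines, at 14.8 to 19.9 and 16.4 to 18.5 TPM, and was called lower in PANC-1 under the other scalings (-0.31 and -0.46). FCGRT, the heavy chain of the neonatal Fc receptor, which also pairs with B2M, was lower in PANC-1 (67.7 to 86.3 against 17.5 to 20.6 TPM, -2.02, adjusted p = 1.35e-06). MR1 was higher in PANC-1 (1.06), at 0.105 to 0.358 TPM in AsPC-1 and 1.34 to 1.90 TPM in PANC-1. Like MICB, it passed the filter through PANC-1 alone. HLA-G (1.28) was higher in PANC-1 too. These HLA genes share sequence with the classical heavy chains, so their levels carry the same uncertainty.

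Of 6 class II genes, 2 passed the filter, HLA-DMA through AsPC-1 and CD74 through PANC-1. HLA-DMA, part of the class II peptide exchanger, read 13.2 to 16.6 TPM in AsPC-1 and 0.663 to 1.06 TPM in PANC-1 (-3.07, adjusted p = 5.31e-08), and CD74, the invariant chain, went the other way (0.049 to 0.166 and 2.79 to 3.71 TPM, 1.93, adjusted p = 1.81e-06). HLA-DRA reached at most 0.358 TPM. Among inhibitory ligands, CD274 (PD-L1) reached at most 0.176 TPM and PDCD1LG2 0.061 TPM, while CD47 read 32.1 to 41.5 TPM over both lines.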
